A study of Mus musculus with 312 samples.

Results

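The genes considered here are the receptors for steroid and related hormones, namely Esr1, Pgr, Nr3c1, Nr3c2, Vdr, Rara and Rarg, together with Tsc22d3 and Fkbp5, a pair of genes known to be induced by glucocorticoids. They were chosen by symbol and make up 9 of the 25135 genes used. RNA was measured in 312 single mammary cells of FVB/NJ mice, all labelled as basal and neither treated nor cultured. The titles divide them into 112 adult cells that carry the mark (2), called the marked adult set here, 125 adult cells without the mark, called the unmarked adult set, and 75 pregnancy cells. The labels explain neither the mark nor the day of pregnancy. The study itself gives an age for its adult mice and describes its pregnancy cells as taken at mid-pregnancy. Per the study's methods, adult basal cells were sorted by high CD29 and by CD24 from glands pooled over several animals, whereas its pregnancy cells on this instrument are described as total epithelium, so the basal identity of the pregnancy set rests on its labels. No animal is named for any cell, so each title set is 1 sample, and no difference below has a replicate check. Every interval covers counting error only. All pregnancy cells share 1 form of title, so a difference of stage cannot be told apart from one of capture run.

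Nuclear hormone receptors are transcription factors that bind small lipid-soluble ligands and act on genes next to their binding sites. In the mammary gland, the oestrogen and progesterone receptors are best known from a subset of luminal cells, the hormone-sensing cells, which pass the signal on to neighbours through secreted factors. Basal cells form the outer contractile layer and are generally regarded as poor in both. The glucocorticoid receptor, by contrast, is present in many cell types, where chaperones hold it in the cytoplasm until its ligand binds.

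A cell was retained with at least 50000 reads assigned to the genes used and at least 1000 genes found, which left 81 marked adult, 58 unmarked adult and 71 pregnancy cells. Their median depths were 174910, 101320.5 and 230643 assigned reads, so the share of cells with a read was compared after each cell had been thinned at random to 50000 reads. Levels are given as CPM, the reads of a gene per 1000000 assigned reads of its cell. At least 6 of 11 core basal genes reached 100 CPM in 76, 51 and 70 retained cells of the 3 sets. Markers of other cells were not at one level across sets. The summed CPM of 8 fibroblast genes had medians of 27.7 (marked, range 0 to 4131), 81.8 (unmarked, 0 to 41023) and 1035 (pregnancy, 55.2 to 5876). In pregnancy this sum came mainly from Dcn, found in 100% of thinned cells against 23.5% and 51.7% of adult cells, and from Mmp2. The medians of Col1a1, Col1a2, Col3a1, Lum, Pdgfra and Dpt were 0 in every set. Even so, Col3a1 was found in 3.70%, 19.0% and 23.9% of thinned cells, and Pdgfra had means of 0.057, 12.0 and 60.0 CPM. At least 3 of the 8 fibroblast genes were found in 3 of 81 marked, 8 of 58 unmarked and 22 of 71 pregnancy cells. The median summed level of 8 immune genes was 0 CPM in each set. At least 3 of 8 endothelial genes were found in 1 of 81 marked, 9 of 58 unmarked and 0 of 71 pregnancy cells, with summed levels up to 71.8, 7599 and 178 CPM. At least 3 of 8 pericyte genes were found in 2, 0 and 1 cells, with summed levels up to 7296, 255 and 859 CPM. At least 3 of 7 pan-luminal genes were found in 19 marked, 10 unmarked and 6 pregnancy cells after thinning, and at 100 CPM in 4, 3 and 1 cells. At least 3 of 10 hormone-sensing luminal genes were found in 1, 5 and 0 thinned cells. Mitochondrial reads had median shares of 9.65%, 15.6% and 18.4%. The part of these differences in the results below was not tested.

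Among the 9 genes, the clearest difference between the pregnancy set and both adult sets lay in Tsc22d3. It encodes GILZ, a leucine zipper protein known as a mediator of glucocorticoid action. Tsc22d3 (Entrez 14605, chrX:140539528-140600522 in GRCm38, protein coding) ranged from 0 to 955 CPM in marked adult cells (median 0), from 0 to 336 CPM in unmarked adult cells (median 0) and from 0 to 1514 CPM in pregnancy cells (median 19.0). The sets therefore overlapped at both ends, but the pregnancy set alone had a median above 0. Mean levels were 32.2 and 29.8 CPM in the marked and unmarked adult sets and 128.7 CPM in pregnancy. The log2 ratio of means, with 10 CPM added to each, was 1.72 over marked and 1.80 over unmarked adult cells. The adult sets differed from each other by -0.08. A gene was called in pregnancy when it passed 2-fold in the same direction against each adult set, and 8411 genes whose mean over the sets reached 10 CPM were tested. Of these, 8.75% were called higher in this way (736 genes) and 5.18% lower (436 genes), a balance that became 475 to 463 when mitochondrial and ribosomal reads were counted in the total. Of the 9 genes, 5 reached that mean (Pgr, Nr3c1, Vdr, Rarg and Tsc22d3), and Tsc22d3 was the 1 called, in the higher direction. Both ratios use the same pregnancy cells.

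**Figure D1:**
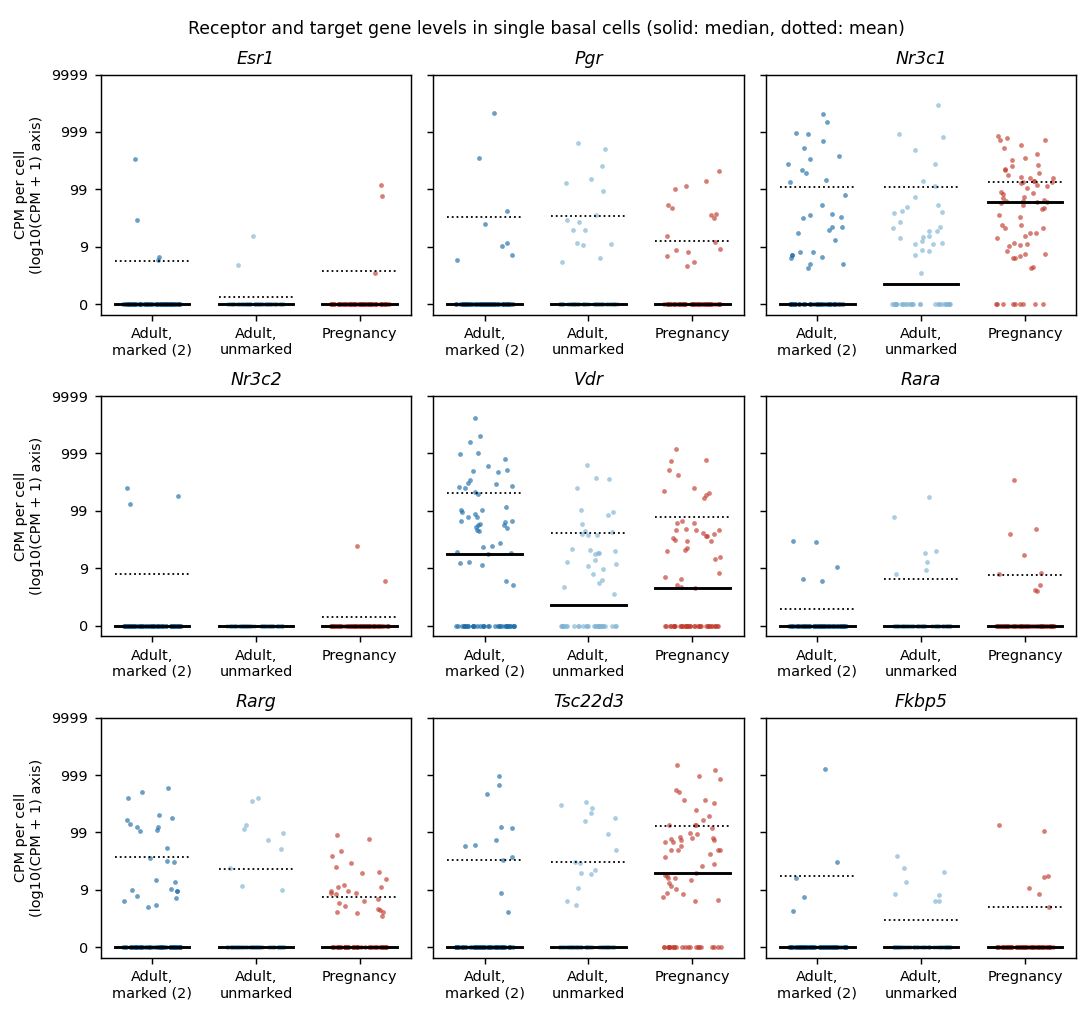
CPM per cell (vertical axis, on a log10(CPM + 1) scale) for the 9 genes in the 81 marked adult, 58 unmarked adult and 71 pregnancy cells, with 1 point per cell, a solid line at the median and a dotted line at the mean. Most points of Esr1, Nr3c2, Rara and Fkbp5 lie at 0, while Tsc22d3 and Nr3c1 have a median above that of both adult sets in pregnancy (19.0 and 59.5 CPM).

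More pregnancy cells carried Tsc22d3 at all. At equal depth it was found in 10 of 81 marked cells (12.3%, Clopper-Pearson 95% interval 6.08 to 21.5%), 14 of 58 unmarked cells (24.1%, 13.9 to 37.2%) and 40 of 71 pregnancy cells (56.3%, 44.0 to 68.1%). Averaged over all possible thinnings rather than 1 draw, the shares were 12.6%, 22.9% and 57.2%. Without thinning they were 14.8%, 27.6% and 69.0%. The gain exceeded 20 percentage points against each adult set, which 13.7% of all tested genes also did. Of the 9 genes, Tsc22d3 and Nr3c1 passed this limit, and 0 lay as far below both adult sets, as did 0.297% of all tested genes. Genes found per cell at equal depth had medians of 2327, 2177 and 3205, higher in pregnancy. The median tested gene gained 7.37 points over marked and 7.19 points over unmarked cells. High levels were also more frequent, with 100 CPM or more in 5 marked, 6 unmarked and 16 pregnancy cells. The highest pregnancy cell, cell 65 with 413 reads, held 16.6% of the set's summed CPM, and the mean without it was 109 CPM. In marked adult cells, by comparison, 3 cells held 80.5% of the sum. Among cells with at least 6 core basal genes the log2 ratios were 1.98 and 1.99. The call was lost with a pseudocount of 100 CPM, at 0.79 and 0.82.

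**Figure D2:**
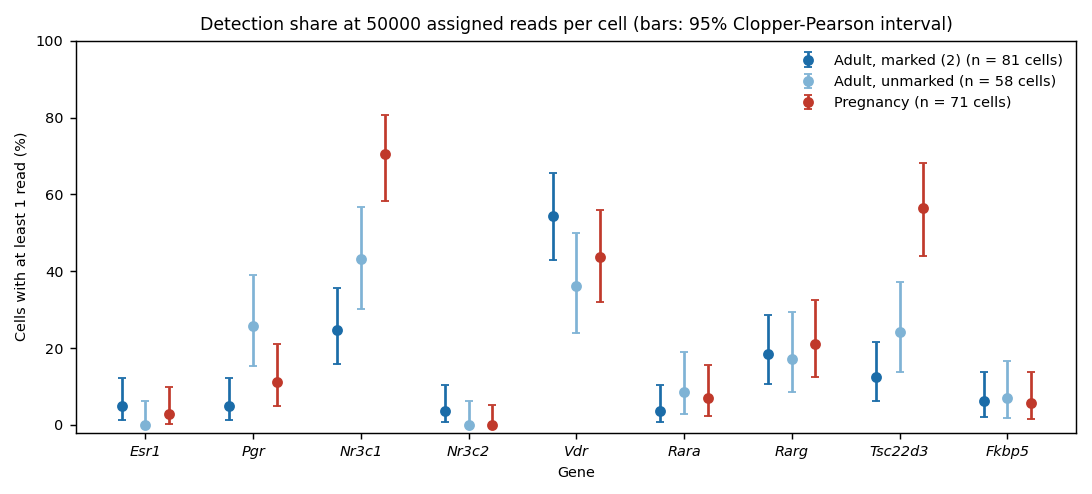
Percentage of cells with at least 1 read after thinning to 50000 assigned reads (vertical axis) for each of the 9 genes, with points for the marked adult, unmarked adult and pregnancy sets and bars for the 95% Clopper-Pearson interval. The pregnancy intervals of Nr3c1 (58.4 to 80.7%) and Tsc22d3 (44.0 to 68.1%) lie above those of both adult sets, and those of the other genes overlap with at least 1 of them.

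To relate these levels to the gene's start sites, the 250 bases before each annotated start of Tsc22d3 and of Fkbp5, the other glucocorticoid target, are shown from RefSeq on GRCm38.p6, with both genes on the minus strand. Capitals mark a match to AGAACA on either strand, the best conserved part of the glucocorticoid receptor's binding site.
Tsc22d3, chrX:140600523-140600772: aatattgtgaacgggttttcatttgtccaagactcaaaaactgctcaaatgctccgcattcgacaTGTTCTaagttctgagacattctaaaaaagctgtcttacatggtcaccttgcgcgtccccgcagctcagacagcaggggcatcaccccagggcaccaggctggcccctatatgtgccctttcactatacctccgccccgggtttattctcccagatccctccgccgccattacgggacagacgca
Tsc22d3, chrX:140548572-140548821: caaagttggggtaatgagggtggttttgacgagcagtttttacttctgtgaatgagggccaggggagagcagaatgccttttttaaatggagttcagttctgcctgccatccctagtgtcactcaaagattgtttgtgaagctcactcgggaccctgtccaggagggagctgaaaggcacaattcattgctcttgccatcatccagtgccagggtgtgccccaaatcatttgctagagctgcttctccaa
Tsc22d3, chrX:140542669-140542918: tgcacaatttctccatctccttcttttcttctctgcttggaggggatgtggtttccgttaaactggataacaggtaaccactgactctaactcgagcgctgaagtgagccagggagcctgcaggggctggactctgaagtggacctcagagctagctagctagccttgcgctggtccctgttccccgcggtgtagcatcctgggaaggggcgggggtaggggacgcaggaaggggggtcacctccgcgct
Fkbp5, chr17:28486150-28486399: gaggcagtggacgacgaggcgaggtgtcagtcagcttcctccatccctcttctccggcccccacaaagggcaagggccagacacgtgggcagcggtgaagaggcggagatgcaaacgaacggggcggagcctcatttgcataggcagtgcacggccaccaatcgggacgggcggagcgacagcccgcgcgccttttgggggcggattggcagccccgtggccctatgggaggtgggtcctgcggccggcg
The motif occurred once, as its reverse complement, 185 bases before the most upstream start of Tsc22d3, and it was absent from the other windows shown. Windows were at hand for 8 of the 9 genes, 15 in all, and this was the 1 window of them that matched. Of all 32851 annotated windows of 250 bases, 16.1% held the same letters, so a match in 1 of 15 is a description of the sequence only. The full palindrome, AGAACA followed by any 3 bases and TGTTCT, was in none of the 15 and in 3 of all windows. AGGTCA, the core of the retinoid, vitamin D and oestrogen receptor sites, was in 1 of the 15 (Rarg, 225 bases before its upstream start) and in 14.0% of all windows. These letters say nothing of binding inside or outside the windows.

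Nr3c1 encodes the glucocorticoid receptor (Entrez 14815, chr18:39410545-39519421). Its mean level hardly differed between sets, while the number of cells with a read did. It ranged from 0 to 2025 CPM in marked adult cells (median 0), from 0 to 2978 CPM in unmarked adult cells (median 1.26) and from 0 to 846 CPM in pregnancy cells (median 59.5). The highest cells were thus adult, and the highest medians were in pregnancy. Means were 107.0, 107.4 and 131.0 CPM, which gave log2 ratios of 0.27 over marked and 0.26 over unmarked cells, and Nr3c1 was not called. At equal depth Nr3c1 was found in 24.7% of marked cells (20 of 81, interval 15.8 to 35.5%), 43.1% of unmarked cells (25 of 58, 30.2 to 56.8%) and 70.4% of pregnancy cells (50 of 71, 58.4 to 80.7%). Over all possible thinnings the shares were 29.9%, 37.5% and 70.8%, in the same order. In each adult set 3 cells held most of the summed level, 51.7% in marked and 75.7% in unmarked cells, against 25.3% in pregnancy. Adult cell 173 alone, with 543 reads and 2978 CPM, held 47.8% of the unmarked sum, and the unmarked mean without it was 57.0 CPM. When each cell's log2(CPM + 10) was averaged instead of its CPM, which gives such cells less weight, the ratios were 1.42 and 1.38 and Nr3c1 passed 2-fold against both adult sets. By that measure the median of all tested genes also moved, to 0.42 and 0.57. With summed reads or with cells of at least 100000 reads the ratio over unmarked cells was -0.20 or -0.46. The direction of the mean level against the unmarked set thus depended on how cells were weighted and filtered.

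Receptor and target were also compared cell by cell. In pregnancy, 29 of 71 thinned cells carried both Nr3c1 and Tsc22d3, 21 carried Nr3c1 without Tsc22d3, 11 carried Tsc22d3 without Nr3c1 and 10 carried neither. Across these 71 cells Spearman's rho between the thinned CPM of the pair was -0.02, and 0.06 without thinning. This describes cells of the pregnancy set, whose capture run is not labelled and whose depth is equal only after thinning. In unmarked adult cells, 12 of 58 carried both, 13 Nr3c1 without Tsc22d3, 2 Tsc22d3 without Nr3c1 and 31 neither. In marked adult cells, 2 of 81 carried both, 18 Nr3c1 without Tsc22d3, 8 Tsc22d3 without Nr3c1 and 53 neither. Among the cells with Tsc22d3, Nr3c1 was found in 29 of 40 pregnancy, 12 of 14 unmarked and 2 of 10 marked cells. Over all thinned cells of these sets, Nr3c1 was found in 70.4%, 43.1% and 24.7%. A wider search for genes with a like pattern was restricted to genes found in at least 50% of the cells of every set, and 0 of the 9 genes met this.

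Fkbp5, an Hsp90 co-chaperone that lowers the affinity of steroid receptors for their ligands, did not follow Tsc22d3. Fkbp5 (Entrez 14229, chr17:28398753-28486149) had a median of 0 CPM in every set and was found in 6.17% of marked (5 of 81), 6.90% of unmarked (4 of 58) and 5.63% of pregnancy cells (4 of 71) at equal depth. Averaged over all thinnings these shares were 3.92%, 7.70% and 5.86%. The highest values were 1289 CPM in marked, 37.5 CPM in unmarked and 133 CPM in pregnancy cells. Means of 16.6, 2.04 and 4.10 CPM left it below the floor of 10 CPM for a comparison. The marked mean came almost wholly from adult cell 19, which held 95.9% of the summed level with 324 reads and carried 3 of 11 core basal genes. That cell also had the highest summed level of the 8 immune genes, 50972 CPM, and without it the marked mean of Fkbp5 was 0.681 CPM. The log2 ratio of unmarked over marked cells accordingly went from -1.14 to 0.10 without the highest cell of each set.

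The progesterone receptor gene Pgr (Entrez 18667, chr9:8898900-8968611) was found in few cells of each set. It ranged from 0 to 2165 CPM in marked adult cells, from 0 to 651 CPM in unmarked adult cells and from 0 to 205 CPM in pregnancy cells, with a median of 0 in all of them. Means were 32.3, 33.5 and 11.6 CPM. The log2 ratios of -0.97 over marked and -1.01 over unmarked cells fell on either side of 2-fold, so that Pgr was not called. The marked mean rested on 1 cell, adult cell 94 with 293 reads, which held 82.7% of the sum. Without the highest cell of each set, the marked mean was 5.67 CPM and the ratio of pregnancy over marked cells turned to 0.27. Detection ran differently from the means, at 4.94% of marked (4 of 81, interval 1.36 to 12.2%), 25.9% of unmarked (15 of 58, 15.3 to 39.0%) and 11.3% of pregnancy cells (8 of 71, 4.99 to 21.0%). Averaged over all thinnings these shares were 6.36%, 20.9% and 15.8%.

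In the unmarked set, some of the cells with most Pgr also carried genes of hormone-sensing luminal cells. Hormone-sensing genes are counted here when found, without the limit of 100 CPM set for the other lists. Adult cell 130, among the 6 cells highest in Pgr, carried 501 CPM of it. That cell had 6 of 7 pan-luminal genes and 0 of 11 core basal genes at 100 CPM. Adult cells 135 and 155 carried 149 and 128 CPM with 8 and 10 core basal genes. They had 5 and 6 of 10 hormone-sensing genes found, 3 and 4 of them at 100 CPM. Adult cell 120 carried 92.5 CPM with 3 hormone-sensing and 5 core basal genes. Mitochondrial reads made up 43.8% of all reads in cell 135, 35.0% in cell 155, 79.5% in cell 120 and 27.5% in cell 130, above the set median of 15.6%, and the part of this in the result was not tested. In contrast, adult cell 226, the highest at 651 CPM, and cell 132 at 252 CPM each had 10 core basal genes and 2 and 0 hormone-sensing genes. Adult cell 126, with 0 CPM of Pgr, also had 3 hormone-sensing genes found, and the other unmarked cells were not compared. Of the 10 hormone-sensing genes, Prlr and Ly6a were found most often in thinned unmarked cells, each in 22.4%, then Areg in 19.0% and Prom1 in 12.1%. The others were found in at most 3.45%. The pregnancy cell with most Pgr, cell 4 at 205 CPM, had 8 core basal genes and no hormone-sensing gene. In cells with at least 6 core basal genes Pgr was still found in 25.5% of unmarked cells. Over the whole list of 10 hormone-sensing genes, 3 passed the 10 CPM floor, Prlr, Areg and Ly6a. They passed it only through the unmarked set, with means of 263, 68.0 and 349 CPM there against 4.47, 2.37 and 0.100 CPM in marked cells. Their log2 ratios of unmarked over marked cells were 4.24, 2.66 and 5.15. This direction was largely set by the floor, so it cannot be weighed against the 16.1% of all tested genes called higher in unmarked cells. The median summed level of the 10 genes was 0 CPM in each set, with highest cells at 463, 23894 and 1037 CPM. Cell 130 held 79.8% of the Prlr sum, 74.4% of the Areg sum and 43.3% of the Ly6a sum of the unmarked set. Foxa1, a defining gene of hormone-sensing cells, and Tnfsf11, the gene for RANKL, were found in 0% of thinned cells in all sets.

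Esr1, the gene for oestrogen receptor alpha (Entrez 13982, chr10:4611989-5005633), was the receptor of the pair with hardly any reads. Reads were present in 4 marked, 2 unmarked and 3 pregnancy cells before thinning. After thinning it was found in 4 of 81 marked cells (4.94%), 0 of 58 unmarked cells, where up to 5.17% remain possible, and 2 of 71 pregnancy cells (2.82%). Averaged over all thinnings these shares were 2.94%, 1.55% and 2.97%. Most positive cells held 1 to 3 reads, and the exceptions were marked adult cell 88 with 28 reads (334 CPM) and pregnancy cells 69 and 23 with 39 and 12 reads (118 and 76.1 CPM). All 3 of these cells carried 8 or 9 core basal genes at 100 CPM and at most 2 hormone-sensing genes. Means were 4.61, 0.310 and 2.77 CPM, all below the floor. Esr1 and Pgr were found together in 0 of 81, 0 of 58 and 0 of 71 thinned cells. At this depth, a small share of cells with both could not be detected.

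Nr3c2, the mineralocorticoid receptor gene (Entrez 110784, chr8:76898083-77245012), was almost confined to 3 marked adult cells. They held 251, 181 and 131 CPM, and the first of them was cell 88, the cell with the highest Esr1. The gene had 0 reads in all 58 unmarked cells and 4 reads in pregnancy, in 2 cells. Means were 6.95, 0 and 0.396 CPM. A share of 3.70% of marked thinned cells (interval 0.770 to 10.4%) stood beside 0 of 58 and 0 of 71 cells, which allow up to 5.17% and 4.23% by the limit of 3 counts and 6.16% and 5.06% by the exact interval. These intervals overlap and cover counting error among cells only, and no difference between sets is drawn from them for Nr3c2.

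Vdr, the vitamin D receptor gene (Entrez 22337, chr15:97854427-97908296), was the most frequent of the receptors in marked adult cells. Its mean level varied more between the adult sets than between pregnancy and either of them. It ranged from 0 to 4175 CPM in marked cells (median 17.1), from 0 to 619 CPM in unmarked cells (median 1.26) and from 0 to 1197 CPM in pregnancy cells (median 3.55). Mean levels were 200.6, 40.1 and 76.5 CPM, with pregnancy between the adult sets. The log2 ratio of unmarked over marked cells was -2.07, past 2-fold in the direction in which 17.0% of tested genes were, while pregnancy lay at -1.28 against marked and 0.79 against unmarked cells. The adult difference did not hang on the highest cell alone, since it was -2.01 without the highest cell of each set. In marked cells 3 cells held 47.9% of the summed level, and the ratio ran from -2.44 to -1.01 over the settings compared. In cells under 30% mitochondrial reads, pregnancy and unmarked cells came to lie level, at -0.02. Vdr was found at equal depth in 54.3% of marked (44 of 81, interval 42.9 to 65.4%), 36.2% of unmarked (21 of 58, 24.0 to 49.9%) and 43.7% of pregnancy cells (31 of 71, 31.9 to 55.9%), and these intervals overlap. Of 9 other genes of vitamin D handling, the 1 above the floor was Dab2, an endocytic adaptor, at means of 15.4, 43.4 and 12.9 CPM. Cyp24a1, the vitamin D-degrading enzyme induced by the receptor, had means of at most 0.216 CPM, and Cyp27b1, which makes the active hormone, had none.

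Rara and Rarg encode the retinoic acid receptors alpha and gamma. Rarg (Entrez 19411, chr15:102234938-102257522) reached 600 CPM in marked, 401 CPM in unmarked and 89.0 CPM in pregnancy cells, with a median of 0 in each. Its means of 35.6, 21.8 and 6.56 CPM were lowest in pregnancy, and the log2 ratios were -1.46 over marked and -0.94 over unmarked cells, the latter short of 2-fold. At equal depth Rarg was found in 18.5%, 17.2% and 21.1% of cells, and with at least 2 reads in 16.0%, 12.1% and 7.04%, so its share was lowest in pregnancy by the second limit and not by the first. Averaged over all thinnings, the shares with at least 1 read were 22.9%, 15.0% and 17.6%, highest in marked cells. At 100 CPM or more there were 11 of 81 marked and 4 of 58 unmarked cells but 0 of 71 pregnancy cells, which allows up to 4.23%. The call of Rarg turned on in 4 of the alternatives described at the end and stayed off in the others. Rara (Entrez 19401, chr11:98927800-98974942) had means of 0.943, 5.39 and 6.63 CPM and was found in 3.70%, 8.62% and 7.04% of cells. Of its reads in unmarked cells, the luminal-gene cell 130 held the most (172 CPM, 55.1% of the sum), and pregnancy cell 7 with 11 core basal genes held 73.0% of the sum of its set at 343 CPM.

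**Figure D3:**
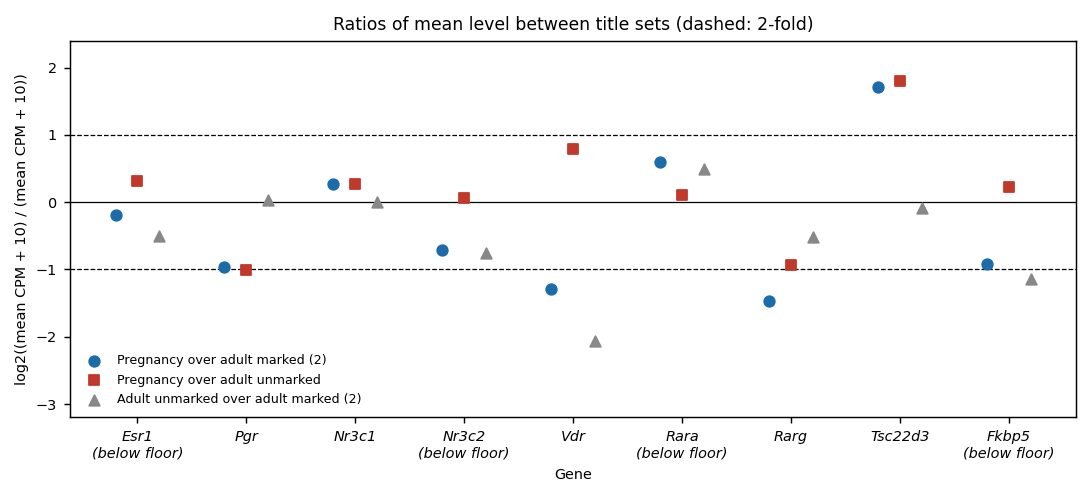
Log2 ratio of mean CPM plus 10 (vertical axis) for the 9 genes, as pregnancy over marked adult (circles), pregnancy over unmarked adult (squares) and unmarked over marked adult (triangles), with dashed lines at 2-fold and the 4 genes under 10 CPM named below the floor. Tsc22d3 lies above 2-fold against both adult sets (1.72 and 1.80) with an adult difference of -0.08, and Vdr shows its widest gap between the adult sets (-2.07).

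Levels of different genes were compared per kilobase of exon. In marked adult cells, Vdr was highest with a mean of 46.1 CPM per kilobase, followed by Nr3c1 with 16.9, Tsc22d3 with 12.9 and Rarg with 11.1. In unmarked adult cells the order was Nr3c1 with 17.0, Tsc22d3 with 12.0, Vdr with 9.22 and Rarg with 6.79 CPM per kilobase. Pregnancy had Tsc22d3 first with 51.7, then Nr3c1 with 20.7, Vdr with 17.6 and Rarg with 2.04 CPM per kilobase. Esr1, Nr3c2, Rara, Pgr and Fkbp5 stayed under 5 CPM per kilobase in each set. Some neighbours in the adult orders changed places without single cells. Without the highest cell of each gene, Nr3c1 dropped to 9.01 below Tsc22d3 at 9.83 in unmarked cells, and Tsc22d3 dropped to 8.30 below Rarg at 8.90 CPM per kilobase in marked cells. Vdr kept the first place in marked cells, at 34.7 against 13.1 for Nr3c1, and stayed above Rarg in unmarked cells, at 6.89 against 4.72. The first 3 places in pregnancy held, at 43.8, 19.1 and 13.9. A typical cell carried 1 of the 7 receptors, the median in each set at equal depth. No receptor was found in 22 of 81 marked, 18 of 58 unmarked and 4 of 71 pregnancy cells.

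Within the whole nuclear receptor family of 49 genes, 19 passed the floor. Called in pregnancy were 1 higher, Nr1d2, and 1 lower, Nr6a1, which as a share of those tested lies under the background of 8.75% and near 5.18%. Nr1d2, a haem-binding repressor of the circadian clock, had means of 41.7, 51.2 and 170.5 CPM, with log2 ratios of 1.80 and 1.56, and its medians were 0, 0 and 10.1 CPM. Pregnancy cell 15 held 40.1% of the Nr1d2 sum, at 4859 CPM. Nr6a1, an orphan receptor known from germ cells, had means of 19.6, 28.5 and 0.852 CPM, with log2 ratios of -1.45 and -1.83. The call of Nr1d2 was lost in 3 of 12 alternatives, among them cells under 30% mitochondrial reads, and that of Nr6a1 in 5, among them the one without the highest cells. Between the adult sets, 8 of the 19 were lower and 2 higher in unmarked cells, beside 17.0% and 16.1% of all genes. The 10 receptors with the highest mean per kilobase over the sets were Nr4a1 (57.7 CPM per kilobase), Nr4a2 (48.2), Vdr (24.3), Nr1d2 (18.9), Nr2f6 (18.9), Nr3c1 (18.2), Nr1d1 (15.4), Nr1h2 (14.3), Rora (8.61) and Rarg (6.65). Nr4a1 and Nr4a2, the orphan receptors at the head, are immediate early genes. Nr4a1 had medians of 7.36, 8.62 and 95.3 CPM and was found in 49.4%, 37.9% and 84.5% of thinned cells, while its mean log2 ratios were 0.34 and 0.31. Nr4a2 had medians of 8.66, 8.90 and 99.3 CPM. As in Nr3c1, medians and shares were higher in pregnancy than in adult cells for both genes, whereas means were not called. The summed level of 13 immediate early and stress genes, which include Nr4a1, had medians of 10294 CPM in marked, 5461 CPM in unmarked and 10515 CPM in pregnancy cells. At the other end, 20 receptors stayed below 1 CPM per kilobase in every set and 3 had no read.

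**Figure D4:**
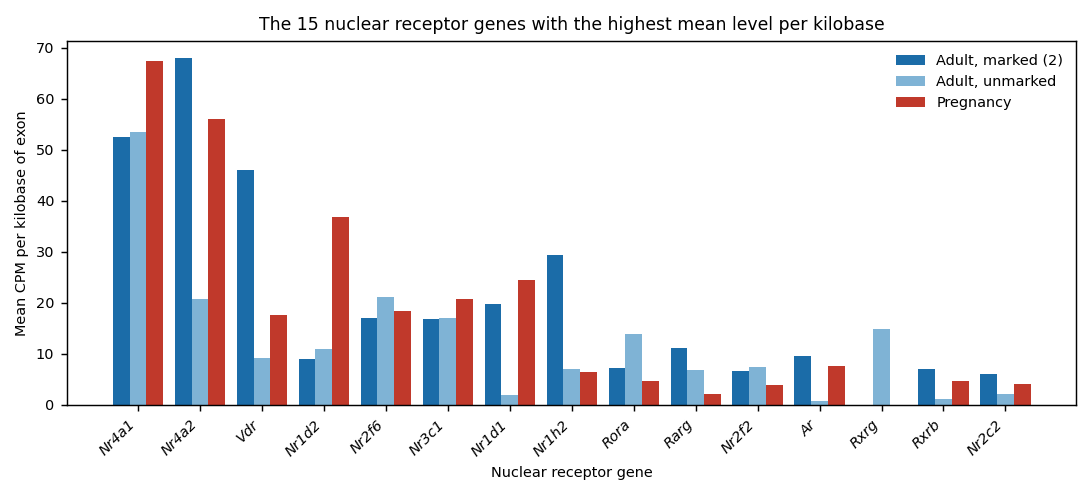
Mean CPM per kilobase of exon (vertical axis) of the 15 nuclear receptor genes with the highest mean over the title sets, with a bar for each set. Nr4a1 and Nr4a2 lead, Vdr has its tallest bar in marked adult cells (46.1) and Nr1d2 in pregnancy (36.7), while Rxrg stands out in unmarked cells through 1 cell that held 98.5% of its sum.

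Glucocorticoid-induced genes other than Tsc22d3 and Fkbp5 did not move one way. Of 20 listed, 16 passed the floor, 2 were called higher and 3 lower in pregnancy, beside 8.75% and 5.18% of all tested genes. Their median log2 ratios were -0.14 over marked and 0.02 over unmarked cells, beside 0.05 and 0.08 over all tested genes. Sgk1, a kinase that acts on ion transport, had means of 1155, 1101 and 2362 CPM (log2 ratios 1.03 and 1.09). Angptl4, a secreted inhibitor of lipoprotein lipase, had means of 211, 151.3 and 486 CPM (1.17 and 1.62). Lower in pregnancy were Anxa1, an anti-inflammatory phospholipid-binding protein, with means of 616, 1382 and 105 CPM (-2.44 and -3.60), Dusp1, a phosphatase of MAP kinases, with 425, 216 and 58.7 CPM (-2.66 and -1.72), and the metallothionein Mt1 with 17471, 21612 and 8632 CPM (-1.02 and -1.32). Dusp1 is also an immediate early gene, and Anxa1 in unmarked cells had 28.1% of its sum in cell 120, whose mitochondrial share was 79.5%. The calls were lost in 3 of 12 alternatives for Sgk1, 3 for Mt1, 2 for Dusp1, 1 for Angptl4 and 0 for Anxa1. Per1, a clock gene that glucocorticoids induce, lay at 31.5, 31.1 and 33.1 CPM.

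**Figure D5:**
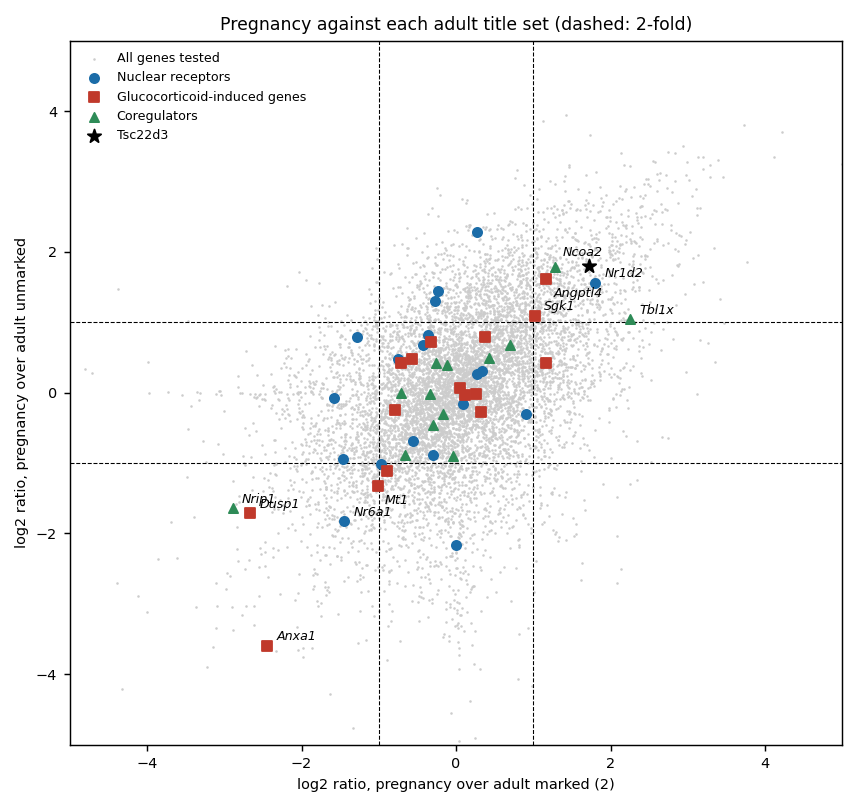
Log2 ratio of mean CPM plus 10 in pregnancy over marked adult cells (horizontal axis) and over unmarked adult cells (vertical axis) for all 8411 tested genes (grey), with nuclear receptors, glucocorticoid-induced genes and coregulators in colour, dashed lines at 2-fold and 9 grey points outside the axes. Called genes are named, with Tsc22d3 (star), Nr1d2, Sgk1, Angptl4, Ncoa2 and Tbl1x at the upper right and Anxa1, Dusp1, Mt1, Nrip1 and Nr6a1 at the lower left, and the 2 axes share the pregnancy cells.

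Partners of the receptors were compared from fixed lists. Of 12 chaperone genes of the steroid receptor complex, 11 passed the floor and 0 were called in either direction, beside 8.75% higher and 5.18% lower of all tested genes. Hsp90ab1, the constitutive Hsp90, had means of 5711, 4961 and 5246 CPM, and Fkbp4, the co-chaperone that opposes Fkbp5, had 129, 158 and 121 CPM. Of 16 coregulators, 13 passed the floor, with 2 called higher and 1 lower, beside 8.75% and 5.18% of all tested genes. Ncoa2, a coactivator that binds steroid receptors, had means of 45.5, 29.1 and 125.3 CPM (1.29 and 1.79). Tbl1x, a subunit of the corepressor complex, had 29.4, 81.4 and 178 CPM (2.25 and 1.04), and Nrip1, a corepressor of ligand-bound receptors, had 273, 109.6 and 28.3 CPM (-2.89 and -1.64). Of 12 alternatives, 6 ended the call of Ncoa2 and 6 that of Tbl1x, including summed reads, CPM of all reads and cells of at least 100000 reads for both, while 1 ended that of Nrip1. The adult sets differed in the same gene Nrip1 by -1.24 and in Tbl1x by 1.21. Ncor1, Ncoa1 and Ncoa3, also abundant coregulators, were at most 0.41 from 0 on the log2 scale against each adult set.

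Genes that make or clear the ligands were mostly at the limit of detection. Of 16 genes of steroid metabolism, 15 were matched and 5 passed the floor, with 0 called in either direction. Of all tested genes, 8.75% were called higher and 5.18% lower. Hsd11b2, which inactivates glucocorticoids, had no read in any retained cell, and Hsd11b1, which regenerates them, had means of 0.305, 3.04 and 4.26 CPM. Of 12 retinoid genes 4 passed the floor, with 1 called higher and 0 lower, beside the same shares of all tested genes. The called gene was Dhrs3, which reduces retinaldehyde and is itself induced by retinoic acid, with means of 44.3, 13.8 and 142 CPM (1.48 and 2.68). Pregnancy cell 28 held 43.4% of the Dhrs3 sum. Rdh10, which makes retinaldehyde, had means of 18.2, 32.8 and 74.1 CPM (1.58 and 0.97), and the Cyp26 enzymes that degrade retinoic acid stayed at or below 1.21 CPM.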

How the data were processed

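The Fluidigm C1, which makes cDNA from cells held in separate chambers, was used for capture, and Nextera XT for the libraries. The deposited values were read counts per Entrez gene and cell, without normalization. The authors aligned read pairs to mm10 with Subread 1.5.0 and counted them with featureCounts and its RefSeq annotation, without molecular identifiers, so PCR copies are counted separately. Whether strand was used is not stated in the sources used here, so overlapping and antisense genes are not told apart. The deposited series-wide table was not used here.

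Of 27179 gene IDs, 25275 were matched to GRCm38.p6 RefSeq symbols, and the 1904 without one held 1.66% of reads. These, 15 mitochondrial and 125 ribosomal protein genes were left out. A cell was retained with 50000 assigned reads and 1000 genes. No doublet caller was run. Genes with a mean of the 3 set means of at least 10 CPM were compared by log2((mean CPM + 10)/(mean CPM + 10)) and called at 1 or -1. The pseudocount understates changes of low genes. Cells were weighted equally, and no test was made because each set is 1 sample. The 9 genes, the lists, the rules and the alternatives were chosen with earlier results of these data known. The text names the 9 genes, up to 3 genes called in each direction per list by the smaller of the 2 absolute ratios, and the 10 receptors highest per kilobase, and any other gene or cell named was chosen after its values were seen. Shares have exact Clopper-Pearson 95% intervals, and a share of 0 allows up to 3 counts in the number of cells. Code was tested on simulated data. Python 3.11.15, scipy 1.17.1 and, for TMM factors alone, edgeR 4.0.16 were used.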

Additional observations from a re-analysis of the deposited data

Results flagged for a closer look

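Cells left out by the depth filter also held reads of the 9 genes, which no comparison above used. They came to 39 reads in 31 marked adult cells (86.2 CPM of their summed assigned reads, Poisson 95% interval 61.3 to 118), 208 reads in 67 unmarked adult cells (289 CPM, 251 to 331) and 38 reads in 4 pregnancy cells (406 CPM, 287 to 557). These sums were singled out because they lie above the limit that a count of 0 allows. The retained cells of the same sets had 470, 262 and 337 CPM for the 9 genes together. The marked value lies above the interval of the left-out marked cells, and the unmarked and pregnancy values lie within those of the left-out cells.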

How the results depend on the processing

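No paired analysis was possible because the numbers in the titles only count cells. No replicate could be left out because each title set is 1 sample. Tsc22d3 was called higher in all 12 alternatives except a pseudocount of 100 CPM, where 0 of the 9 genes were called. Averaging log2(CPM + 10) gave 2 genes higher, Nr3c1 besides Tsc22d3, where 15.7% of all tested genes were higher. The count of genes lower in pregnancy, 0 as reported, was 2 (Pgr and Rarg) with a pseudocount of 1 CPM, 1 (Pgr) with TMM scaling, and 1 (Rarg) with at least 100000 reads and 1500 genes, with summed reads, and in cells under 30% mitochondrial reads.

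For the lists, a pseudocount of 1 CPM gave 3 nuclear receptors lower and 2 retinoid genes higher, and 100 CPM gave 0 receptors in either direction, 0 glucocorticoid-induced genes higher, 0 coregulators in either direction and 0 retinoid genes higher. At least 100000 reads gave 0 coregulators and 2 retinoid genes higher. Averaged logs gave 3 receptors higher and 0 lower, and 6 glucocorticoid-induced genes higher and 1 lower. With averaged logs 15.7% of all 3277 tested genes were higher and 0.977% lower, so the balance of all genes moved the same way. Summed reads gave 2 receptors lower, 0 coregulators higher and 2 retinoid genes higher. CPM of all reads gave 1 glucocorticoid-induced gene and 0 coregulators higher. TMM scaling gave 2 receptors lower, and 1 glucocorticoid-induced gene and 1 coregulator higher. Without the highest cell of each gene and set there were 2 receptors higher and 0 lower, and 1 coregulator, 1 steroid metabolism gene and 2 retinoid genes higher. Cells with 6 core basal genes gave 1 coregulator higher. Cells under 30% mitochondrial reads gave 0 receptors higher and 2 lower, 1 coregulator higher and 2 lower, and 2 retinoid genes higher. A floor of 50 CPM gave 0 receptors lower. Beside these counts, in the settings other than averaged logs, 0.797% to 11.8% of all tested genes were higher and 0.476% to 9.56% lower. The ratio of Fkbp5 between the adult sets, -1.14, was reversed to 0.023 with averaged logs, 0.10 without the highest cells and 0.25 in cells with 6 core basal genes. In the other cases the cause was not tested.

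Over all tested genes, 736 were higher and 436 lower in pregnancy. These counts were 992 and 804 with a pseudocount of 1 CPM, 67 and 40 with 100 CPM, 513 and 32 with averaged logs, 475 and 463 with CPM of all reads, 616 and 231 without the highest cells, 220 and 227 at a floor of 50 CPM, and 915 and 439 with no floor. CPM of all reads moved the median ratio over marked cells to -0.12. Of 270 recomputed log2 ratios of the 9 genes, 185 stayed within the counting interval of the reported ratio. In 29 values, from 10 of the 27 ratios, the sign changed, 3 of them (those of Fkbp5 above) where the reported ratio had passed 2-fold. The others lay in Esr1, Pgr, Nr3c1, Vdr, Rara, Fkbp5 and, between the adult sets, Tsc22d3. Of the detection shares, 114 stayed within their interval and 21 moved.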
